A study of Mus musculus with 10 samples.

Results

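The microRNAs (miRNAs) described here are the pair mmu-mir-143 and mmu-mir-145a and the 6 hairpins of the muscle group of miR-1, miR-133 and miR-206: mmu-mir-1a-1, mmu-mir-1a-2, mmu-mir-133a-1, mmu-mir-133a-2, mmu-mir-133b and mmu-mir-206. They are 8 of the 1136 miRNA hairpins counted in small RNA libraries of mouse sperm. The 8 were chosen by name, with measured values of these same libraries known, among them the level of mmu-mir-145a by diet and the abundance of mmu-mir-143. Their levels, their ratios and their differences between diets are therefore given as a description, with no p-value, and nothing is read from whether a member passed a threshold.

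Male C57BL/6J mice received a control diet with 10% of energy from fat (CD-F0) or a high-fat diet with 42% (HFD-F0) from 4 weeks of age for 10 weeks. Each group had 5 libraries of RNA of 18 to 30 nt from mature sperm, taken from the tail of the epididymis and the vas deferens. Both groups share strain, sex and generation, and no allele or further agent separates them. No step to remove other cells from the sperm is given in the sources used here, nor whether each library is 1 mouse or a pool. P-values below therefore measure the spread between libraries, which may be technical. A library held 29558751 to 32178088 clean reads, of which 14.5% (HFD-F0 5) to 23.5% (HFD-F0 1) were assigned to miRNA hairpins. Levels are given in reads per 1000000 clean reads (RPM), where an assigned read counts toward a whole hairpin and not toward one of its arms.

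A miRNA is cut from a hairpin and guides the silencing of messenger RNAs, largely through pairing of bases 2 to 8, the seed. miR-143 and miR-145 are made from 1 primary transcript and are best known from smooth muscle, where they favour the contractile state, and from other mesenchymal cells. miR-1 and miR-133 are made together in heart and skeletal muscle, where miR-1 favours differentiation and miR-133 is known for keeping muscle precursors dividing. miR-206 is a relative of miR-1 that is largely restricted to skeletal muscle, and shares a transcript with miR-133b.

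RefSeq (GRCm38.p6) holds mature sequences for 3 of the 8 members, 5 entries in all. They are shown with the seed in capitals, because the 3p arms carry the seeds of the muscle group and the 5p arms show how near miR-206 and miR-1 are. As background, the 3p arm of miR-1 is known to have the seed of miR-206-3p, and miR-133a that of miR-133b-3p, so the seeds divide the group into a miR-1 and miR-206 branch and a miR-133 branch. The mature sequences of miR-1a-3p and miR-133a are not shown here.
mmu-miR-206-3p: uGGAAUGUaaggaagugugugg
mmu-miR-133b-3p: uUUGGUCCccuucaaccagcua
mmu-miR-206-5p: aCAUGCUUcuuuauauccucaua
mmu-miR-1a-1-5p: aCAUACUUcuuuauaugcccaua
mmu-miR-133b-5p: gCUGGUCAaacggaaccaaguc
The 5p arms of miR-206 and miR-1a-1 hold the same base at 20 of 23 positions. Counted from 1 at the 5′ end, with the miR-206 base first, they differ by G5A, C17G and U19C, of which the first lies in the seed. Apart from the members, the miR-206-3p seed occurs in 2 entries of the table, mmu-miR-6349 and mmu-miR-6382. The mmu-mir-6349 hairpin had a mean of 0.0704 RPM and at most 0.249 RPM in a library, against 106 RPM for mmu-mir-206.

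In the genome (GRCm38; GENCODE and RefSeq annotation) the 8 hairpins form 4 pairs. Mir206 (chr1:20679010-20679082, plus strand) and Mir133b (chr1:20682769-20682887, plus strand) lie 3686 bases apart in exons of a long intergenic non-coding RNA named Gm28653 in GENCODE and Lincmd1 in RefSeq. Mir1a-1 (chr2:180389048-180389124, plus strand) and Mir133a-2 (chr2:180398379-180398482, plus strand) lie 9254 bases apart within the RefSeq host gene Mir1a-1hg. Their counterparts Mir1a-2 (chr18:10785481-10785552, minus strand) and Mir133a-1 (chr18:10782909-10782976, minus strand) lie 2504 bases apart, in introns of the host gene Mir133a-1hg and, on the opposite strand, of the protein-coding Mib1. Mir1b overlaps Mir1a-2 on the plus strand. Mir143 (chr18:61649196-61649258, minus strand) and Mir145a (chr18:61647825-61647894, minus strand) lie 1301 bases apart within the RefSeq long non-coding RNA Carmn.

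Libraries that stand apart are named first, because they enter the levels of the muscle group below. CD-F0 4, HFD-F0 2 and HFD-F0 5 held the 3 lowest levels of miR-1a, miR-133a, mmu-mir-133b and mmu-mir-206 of all 10 libraries. In mmu-mir-206 they had 84, 91 and 187 reads, which is 2.67, 2.84 and 6.33 RPM with 95% Wilson intervals of 2.16 to 3.30, 2.31 to 3.49 and 5.48 to 7.30 RPM that cover counting error only. The other 7 libraries held 49.5 to 263 RPM of mmu-mir-206. The same 3 libraries did not stand together in miR-143 and miR-145a: counted from the lowest, they were the 2nd, 8th and 1st library for mmu-mir-143 and the 1st, 9th and 5th for mmu-mir-145a. 1 of them is CD-F0 and 2 are HFD-F0. mmu-mir-126a, the miRNA of endothelium, also had its 3 lowest levels there, at 1257, 1599 and 901 RPM against 1613 to 2066 RPM in the other 7. So did mmu-mir-378d, at 30.7, 41.1 and 38.6 RPM against 50.9 to 82.1 RPM in the other 7. mmu-mir-378d was picked for its likeness to miR-1a, mmu-mir-133b and mmu-mir-206 over these same libraries, so its low levels there are no separate support. How many other hairpins had the same 3 lowest libraries was not counted. The labels give no batch, day or litter, and the part of any such factor in this pattern was not tested.

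mmu-mir-143 was the most abundant miRNA hairpin of these libraries, with 26257 RPM on average and 14.8% of all miRNA reads. The next hairpins by mean level were mmu-mir-21a (12075 RPM), mmu-mir-449a (6356 RPM) and mmu-let-7g (5950.4 RPM). In CD-F0 libraries 1 to 5 mmu-mir-143 stood at 28067, 22660.2, 28193, 20878 and 25587 RPM, and in HFD-F0 libraries 1 to 5 at 35029.9, 29154, 26355, 31716 and 14929 RPM. HFD-F0 held both the highest library (HFD-F0 1) and the lowest (HFD-F0 5), so the HFD-F0 values enclosed the CD-F0 values. The group means were 25077 ± 3255 RPM (SD, n = 5) in CD-F0 and 27437 ± 7690 RPM (SD, n = 5) in HFD-F0. As a share of miRNA reads it ranged from 10.3% (HFD-F0 5) to 17.4% (HFD-F0 4), which sets aside how many miRNA reads a library had.

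mmu-mir-145a, the partner from the same transcript, was the 49th hairpin by mean level, with 940.1 RPM and 0.530% of miRNA reads. Its levels were 811, 448, 510, 359 and 765 RPM in CD-F0 1 to 5 and 859, 1359.5, 868, 2636 and 787 RPM in HFD-F0 1 to 5. In 4 of the 5 HFD-F0 libraries mmu-mir-145a lay above every CD-F0 library, while HFD-F0 5 (787 RPM) lay below CD-F0 1 (811 RPM), so the groups overlapped. HFD-F0 4 stood well above the other HFD-F0 libraries, and the group mean of 1302 ± 780 RPM (SD, n = 5) lay above the group median of 868 RPM. In CD-F0 the mean was 578 ± 199 RPM (SD, n = 5). The ratio of HFD-F0 to CD-F0 was 2.25 between means and 1.70 between medians.

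**Figure D1:**
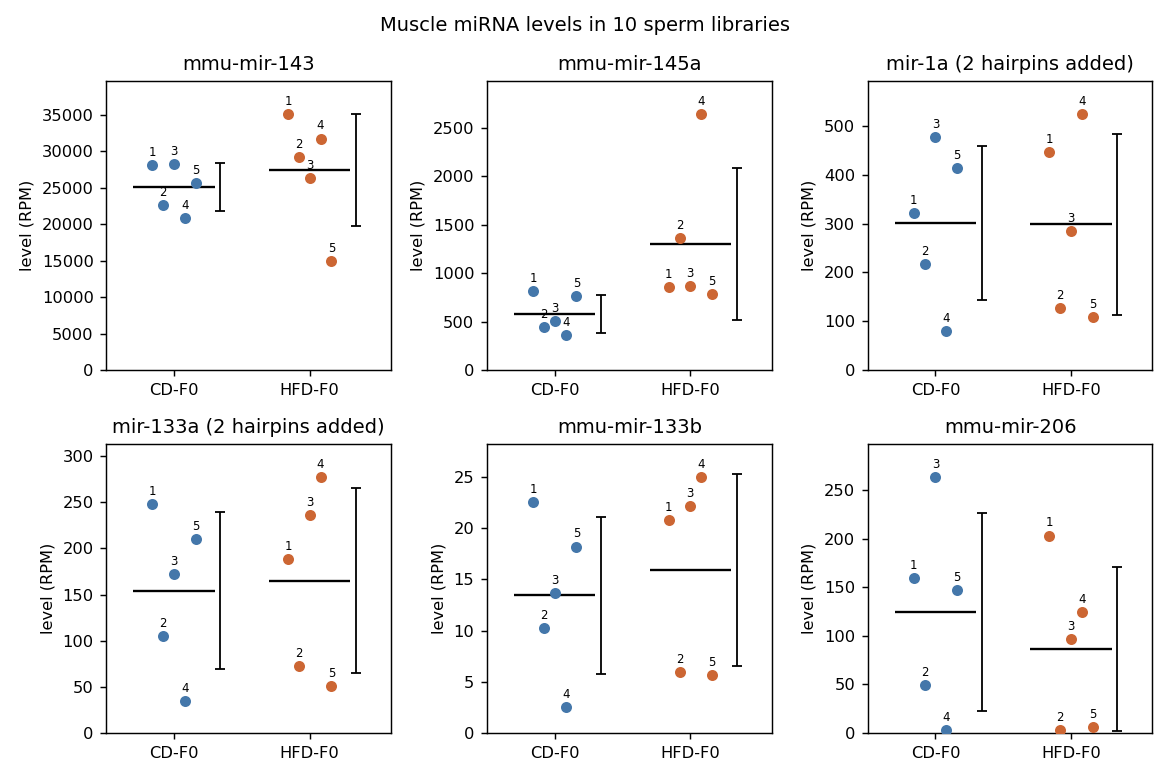
Level in RPM of mmu-mir-143, mmu-mir-145a, miR-1a and miR-133a (2 hairpins of each added), mmu-mir-133b and mmu-mir-206 in the 5 CD-F0 and 5 HFD-F0 libraries; points are libraries, and the lines give group mean and SD. For mmu-mir-145a 4 HFD-F0 libraries lie above all CD-F0 libraries with HFD-F0 4 at 2636 RPM, and for mmu-mir-206 libraries of both groups lie near 0.

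miR-1a and miR-133a are each encoded by 2 hairpins with near-identical read values. The values for mmu-mir-1a-1 and mmu-mir-1a-2 differed by 1 to 45 reads in a library, at most 0.366% of their sum, and those for mmu-mir-133a-1 and mmu-mir-133a-2 were equal within 0.01 read in 9 of 10 libraries. Reads that fit both copies were thus divided between them in the deposited files, and which locus they came from cannot be told. Each pair is added up below as miR-1a or miR-133a. The fractional values of mmu-mir-133b (in 9 libraries), mmu-mir-206 (4) and mmu-mir-145a (4) show that some of their reads were divided as well. With which features was not tested.

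miR-1a held 321, 217, 477, 80.4 and 413 RPM in CD-F0 1 to 5 and 447, 128, 285, 523 and 109 RPM in HFD-F0 1 to 5. The groups overlapped, with HFD-F0 4 above and CD-F0 4 below every library of the other group, and the means were 301 ± 158 RPM (SD, n = 5) in CD-F0 and 298 ± 185 RPM (SD, n = 5) in HFD-F0. Within each group libraries differed several times over, from 80.4 to 477 RPM in CD-F0 and from 109 to 523 RPM in HFD-F0. Over both groups the highest of the 10 (HFD-F0 4) was 6.51 times the lowest (CD-F0 4). Without the 3 low libraries miR-1a ranged from 217 to 523 RPM.

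miR-133a, its transcript partner, stood at 248, 105, 172, 34.7 and 209.9 RPM in CD-F0 1 to 5 and at 189, 72.1, 237, 277 and 50.7 RPM in HFD-F0 1 to 5. The means were 154 ± 85.0 RPM (SD, n = 5) and 165 ± 100.01 RPM (SD, n = 5). These groups overlapped as well, with the same library lowest (CD-F0 4) and highest (HFD-F0 4) as for miR-1a.

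mmu-mir-133b, which has its own locus and differs from miR-133a at few bases, was the least abundant member, at 22.6, 10.3, 13.6, 2.51 and 18.2 RPM in CD-F0 and 20.8, 5.97, 22.2, 25.0 and 5.64 RPM in HFD-F0. Means were 13.4 ± 7.68 RPM (SD, n = 5) and 15.9 ± 9.35 RPM (SD, n = 5). The order of libraries again put CD-F0 4 last and HFD-F0 4 first, with overlapping groups.

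mmu-mir-206, the skeletal muscle member, had 159, 49.5, 263, 2.67 and 147 RPM in CD-F0 1 to 5 and 203, 2.84, 96.6, 124 and 6.33 RPM in HFD-F0 1 to 5. Its highest library (CD-F0 3, 8170 reads) was 98.7 times its lowest (CD-F0 4, 84 reads), and both were CD-F0. The means of 124 ± 102 RPM (SD, n = 5) and 86.7 ± 84.5 RPM (SD, n = 5) differed by less than either SD. In bulk libraries fewer cells of a type and less RNA per cell cannot be told apart, which holds for every level here.

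**Figure D2:**
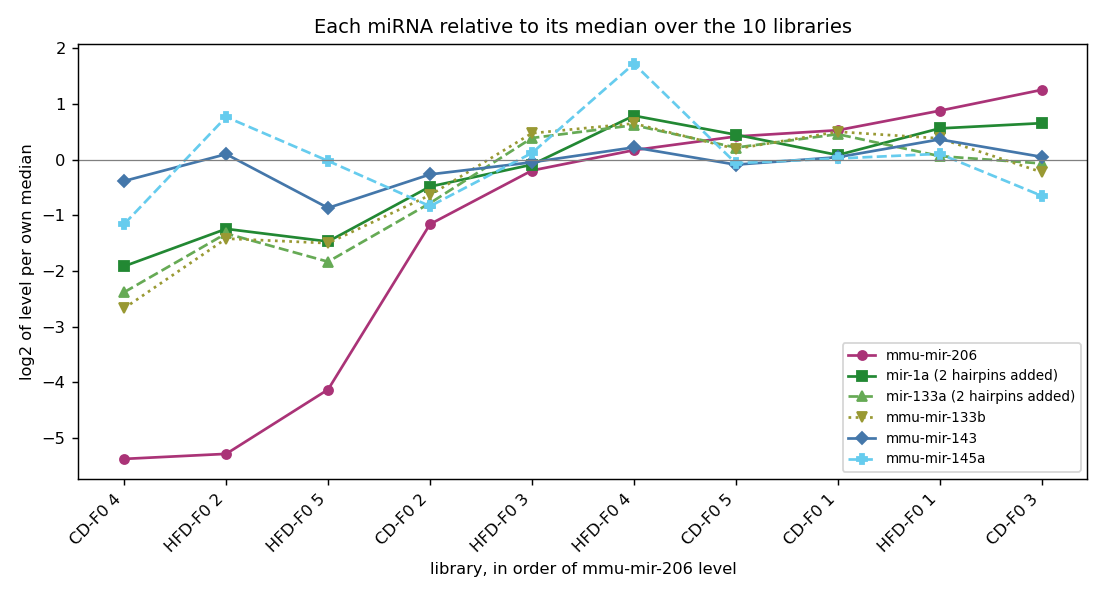
Log2 of each level relative to its own median over the 10 libraries, with libraries ordered by mmu-mir-206; each line is 1 miRNA. CD-F0 4, HFD-F0 2 and HFD-F0 5, at the left, are the 3 lowest libraries of miR-1a, miR-133a, mmu-mir-133b and mmu-mir-206, while mmu-mir-143 and mmu-mir-145a follow other orders.

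By mean level the members ran mmu-mir-143, mmu-mir-145a, miR-1a (299.9 RPM), miR-133a (159.6 RPM), mmu-mir-206 and mmu-mir-133b. Mature miRNAs have nearly the same length, so RPM can be set side by side between them, although ligation and amplification can favour some sequences. The steps from mmu-mir-143 to mmu-mir-145a and from mmu-mir-145a to miR-1a exceeded the spread, since the lowest mmu-mir-143 library lay above the highest mmu-mir-145a library and mmu-mir-145a lay above miR-1a in all 10 libraries. miR-1a exceeded miR-133a in every library too, with 362 to 831 miR-133a reads per 1000 miR-1a reads. The neighbours miR-133a and mmu-mir-206 did not differ beyond their spread, and mmu-mir-206 lay below mmu-mir-133b in HFD-F0 2.

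The spread over libraries set the muscle group apart from mmu-mir-143. Measured as the SD of log2(RPM + 0.1) over the 10 libraries, among the 455 hairpins with a mean of at least 1 RPM, mmu-mir-206 was the most variable hairpin, with 2.59 against a median of 0.40. The next were mmu-mir-6977 (1.95) and mmu-mir-122 (1.61), the latter known from liver. mmu-mir-133b had an SD of 1.10 (16th), mmu-mir-133a-1 and mmu-mir-133a-2 of 1.05 (20th and 19th), mmu-mir-1a-1 and mmu-mir-1a-2 of 0.97 (26th and 25th) and mmu-mir-145a of 0.82 (38th). mmu-mir-143, at 0.35, ranked 284th and thus lay below the median. The 3 low libraries enter these SDs. Over the other 7 miR-1a ran from 217 to 523 RPM, miR-133a from 105 to 277 RPM and mmu-mir-133b from 10.3 to 25.0 RPM. There mmu-mir-206 ran from 49.5 to 263 RPM and mmu-mir-145a from 448 to 2636 RPM. SD ranks over those 7 were not computed, so the order of mmu-mir-145a and the muscle group holds for all 10 libraries only.

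**Figure D3:**
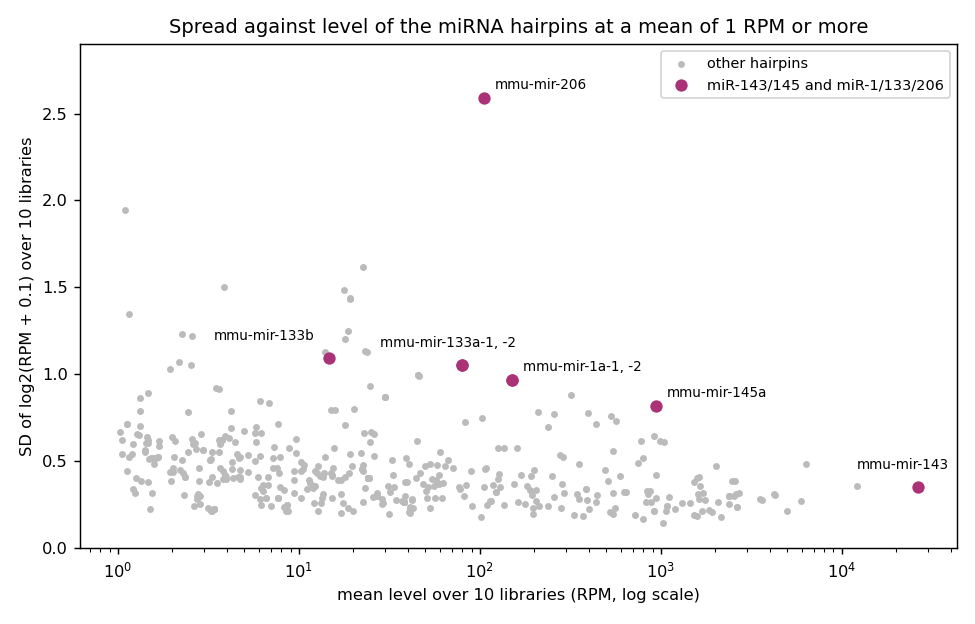
SD of log2(RPM + 0.1) over the 10 libraries against mean level (RPM, log scale) for 455 hairpins; coloured points are the 8 members. mmu-mir-206 has the highest SD of all hairpins shown, at 2.59, and mmu-mir-143 has the highest mean level with an SD of 0.35.

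Ratios of partners within a library do not depend on its total, so they were computed for each transcript pair. Per 1000 mmu-mir-143 reads a library held 28.9, 19.8, 18.1, 17.2 and 29.9 mmu-mir-145a reads in CD-F0 1 to 5 and 24.5, 46.6, 32.9, 83.1 and 52.7 in HFD-F0 1 to 5. Again 4 HFD-F0 libraries lay above all CD-F0 libraries, but the library within the CD-F0 range was HFD-F0 1 and not HFD-F0 5. The means were 22.8 ± 6.13 (SD, n = 5) in CD-F0 and 48.0 ± 22.6 (SD, n = 5) in HFD-F0, a mean log2 difference of 0.99. HFD-F0 5, lowest of all in mmu-mir-143, was thus second highest in this ratio.

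For miR-133a per 1000 miR-1a reads the values were 773, 486, 362, 432 and 508 in CD-F0 and 423, 563, 831, 530.1 and 464 in HFD-F0. This ratio varied 2.30 times from lowest to highest library, far less than the level of either partner, and the groups overlapped (512 ± 157 and 562 ± 160.2, SD, n = 5). The 3 low libraries lay within the range of the others, at 432, 563 and 464.

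mmu-mir-133b and mmu-mir-206, which both overlap exons of the same annotated gene, varied most against each other. Per 1000 mmu-mir-206 reads there were 142, 207, 51.8, 940.5 and 124 mmu-mir-133b reads in CD-F0 1 to 5 and 102, 2101, 229, 201 and 891 in HFD-F0 1 to 5. The 3 low libraries held the 3 highest ratios, so that mmu-mir-206 was lower there by a larger factor than mmu-mir-133b, and the ratio spanned 40.5 times. Against miR-133a, with which it shares nearly all of its mature sequence, mmu-mir-133b spanned 1.54 times, at 72.3 to 111 reads per 1000 miR-133a reads. With 1 mismatch allowed in the alignment, reads can fit both miR-133a and mmu-mir-133b, and the values of both are fractional (in 10 and 9 libraries). How many reads they share was not tested, and this span is therefore not set against that with mmu-mir-206. Per 1000 miR-1a reads mmu-mir-206 ran from 22.2 (HFD-F0 2) to 553 (CD-F0 3), or 24.9 times.

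**Figure D4:**
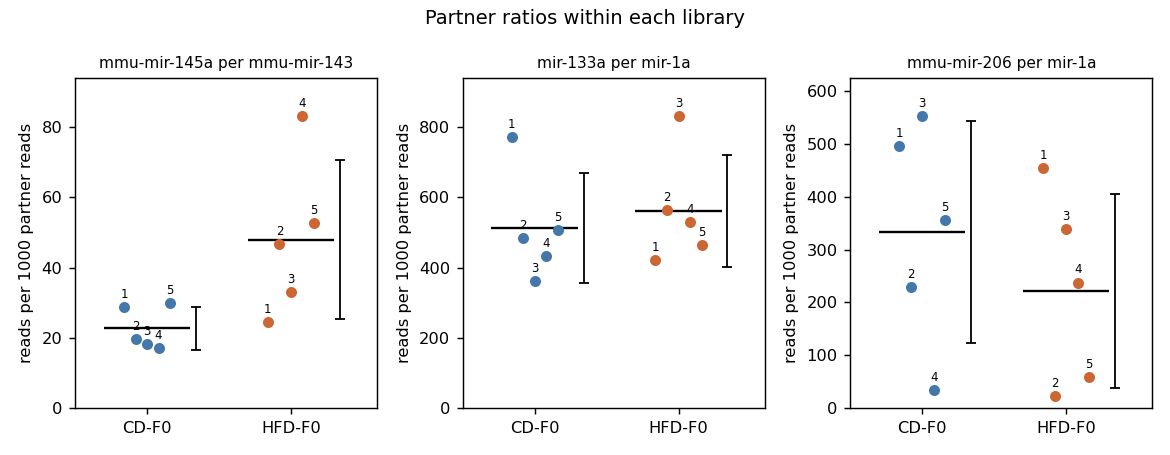
Reads per 1000 partner reads within each library for mmu-mir-145a per mmu-mir-143, miR-133a per miR-1a and mmu-mir-206 per miR-1a, in CD-F0 and HFD-F0; points are libraries, marked with their number, and the lines give group mean and SD. mmu-mir-145a per mmu-mir-143 is 22.8 ± 6.13 in CD-F0 and 48.0 ± 22.6 in HFD-F0, and mmu-mir-206 per miR-1a is 334 ± 210.1 and 222 ± 184, with CD-F0 4, HFD-F0 2 and HFD-F0 5 lowest.

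The comparison the study was designed for is HFD-F0 against CD-F0, fitted for all 814 features that passed a filter on low counts, 529 of them miRNA hairpins. All 8 members passed the filter, and all had reads in every library. At the thresholds of the study's methods (unadjusted p of at most 0.05 and an absolute log2 fold change of at least 1 with edgeR), 2.09% of features were higher and 1.6% lower in HFD-F0. Of the 8 members 1, mmu-mir-145a, was past these thresholds, as higher, with edgeR and with DESeq2. Nothing is read from this count, since the members were chosen with this contrast known.

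The log2 fold change of mmu-mir-145a was 1.09 (SE 0.38), and 0.62 (SE 0.29) without HFD-F0 4. It was also under the threshold of 1 without CD-F0 2 (0.95) and without CD-F0 4 (0.96). For mmu-mir-143 the value was 0.02 (SE 0.19). The 2 hairpins of 1 transcript thus differed in their values, and that difference was not tested. For mmu-mir-1a-1 and mmu-mir-1a-2 it was -0.13 (SE 0.49), for mmu-mir-133a-1 and mmu-mir-133a-2 -0.02 (SE 0.54), for mmu-mir-133b 0.11 (SE 0.55) and for mmu-mir-206 -0.70 (SE 1.06). Every one of these 6 values was smaller than its standard error, and the errors were about 2 to 4 times the median SE of miRNA hairpins, 0.26. The value of mmu-mir-206 moved with single libraries of both kinds, to -0.27 without CD-F0 3, its highest library, to -1.01 without CD-F0 4, its lowest, and to -1.21 without HFD-F0 1. Without the 3 low libraries, which were picked on mmu-mir-206 itself, it was -0.31 (SE 0.47), and mmu-mir-145a had 1.09. The median log2 fold change was -0.02 over the members and -0.01 over all features tested, and 3 of 8 members were above 0.

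**Figure D5:**
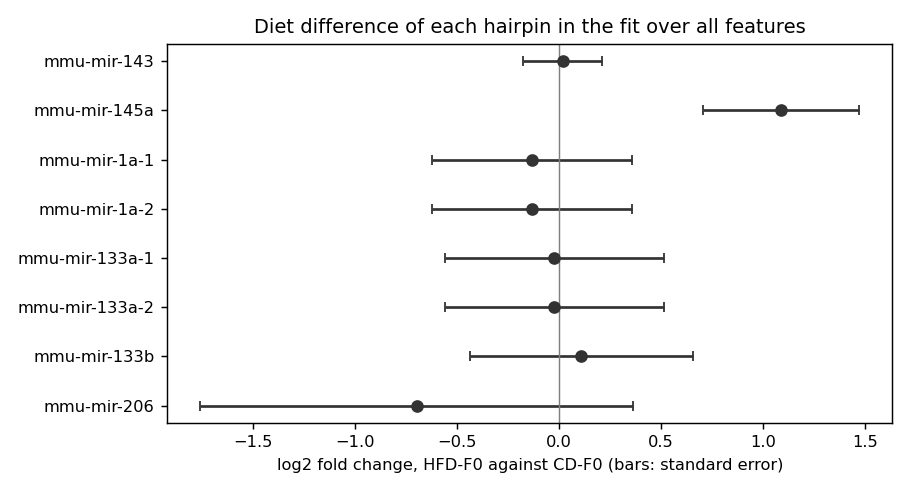
Log2 fold change of the 8 members, HFD-F0 against CD-F0, with standard errors, from the edgeR fit of all features. mmu-mir-145a lies at 1.09 and mmu-mir-143 at 0.02, while the bars of the 6 hairpins of miR-1a, miR-133a, mmu-mir-133b and mmu-mir-206 all cross 0.

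Other miRNAs of muscle gave a further view of these libraries. Of a list of 6, the heart and slow muscle miRNAs encoded in myosin genes (mmu-mir-208a, mmu-mir-208b, mmu-mir-499), mmu-mir-1b and the miR-486 hairpins, 4 passed the filter and 0 were past the thresholds in either direction with edgeR or DESeq2, with 0 at an unadjusted p under 0.05 by either. Of the 4, 2 had a log2 fold change above 0, with a median of 0.34. The 2 miR-208 hairpins were near 0, with means of 0.453 RPM (mmu-mir-208a) and 0.314 RPM (mmu-mir-208b), and mmu-mir-1b had 0.113 RPM. mmu-mir-499 was the most abundant of the list, at 84.1 RPM. The list's summed level was 121 ± 22.2 RPM (SD, n = 5) in CD-F0 and 143.1 ± 50.7 RPM (SD, n = 5) in HFD-F0. It was lowest in HFD-F0 5 (71.3 RPM) but highest in HFD-F0 2 (214 RPM). There mmu-mir-486a (73.2 RPM) and mmu-mir-486b (71.6 RPM), also known from red blood cells, gave most of the sum, while mmu-mir-499 had 68.6 RPM. The list of blood and immune cells also had its highest sum there (6033 RPM). Over all 10 libraries together mmu-mir-146a gave 55.9% of that list's reads. The part of blood in the miR-486 level was not tested.

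Of 12 further hairpins known from smooth muscle and mesenchyme, all passed the filter and 0 were past the thresholds with edgeR or DESeq2, and 3 had an unadjusted p under 0.05 with each tool (mmu-mir-221, mmu-mir-125b-1 and mmu-mir-125b-2), which 10.2% of all features met with edgeR and 12.2% with DESeq2. Their median log2 fold change was 0.11, with 8 above 0. The hairpins are not independent, since those of miR-125b share a mature sequence and those of miR-199 had nearly equal values (2375, 2379 and 2373 RPM), so these counts hold some miRNAs more than once. mmu-mir-145b, a separate hairpin related to mmu-mir-145a, had 1.99 RPM and a log2 fold change of 0.70 (SE 0.38, edgeR adjusted p = 0.533). mmu-mir-21a gave 53.1% of the list's reads, so the summed level (22414 ± 2290 RPM in CD-F0 and 23045 ± 6478 RPM in HFD-F0, SD, n = 5) was largely its level.

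The label of the samples was checked against miRNAs of male germ cells. All 10 hairpins of that list were present, led by mmu-mir-449a, a relative of miR-34 that is abundant in meiotic and later germ cells, and none was at 0. Summed they held 13316 ± 1069 RPM in CD-F0 and 12196 ± 3081 RPM in HFD-F0 (SD, n = 5), from 8666 RPM in HFD-F0 4 to 17008 RPM in HFD-F0 1, and 4 of 10 had a log2 fold change above 0 with a median of -0.01. mmu-mir-143 alone therefore exceeded the summed germ cell list in each library. HFD-F0 4, highest in mmu-mir-145a, miR-1a, miR-133a and mmu-mir-133b, was lowest in this list.

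Markers of other cell types were read beside the members. For epithelium the 6 hairpins, led by mmu-mir-429, summed to 5519 ± 1194 RPM in CD-F0 and 6889.7 ± 1574 RPM in HFD-F0 (SD, n = 5), and 6 of 6 had a log2 fold change above 0 with a median of 0.29. For blood and immune cells 7 of 8 listed names were in the files, led by mmu-mir-146a, with 4518 ± 802 and 4800.3 ± 1140 RPM, and 5 of 7 were above 0 with a median of 0.21. For endothelium mmu-mir-126a had 1658 ± 267 and 1638 ± 445 RPM and a log2 fold change of -0.13. None of these hairpins and none of the germ cell list was past the thresholds with edgeR or DESeq2, and of all 40 list hairpins tested 4 had an unadjusted p under 0.05 with each tool, the 3 above and mmu-mir-223. That is no larger a share than the 10.2% (edgeR) and 12.2% (DESeq2) of all features. The part of these cell types in the values of the members was not tested.

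Hairpins that moved most like each member were found by Pearson's r of log2(RPM + 0.1) over the 10 libraries among the 455 hairpins. This is a description without a test. The libraries share a depth and a composition, and r over the 7 libraries without the low 3 stands second. Closest to mmu-mir-143 were mmu-mir-126a (r = 0.938, and 0.861 over 7), mmu-mir-322 (0.899 and 0.697), mmu-mir-503 (0.819 and 0.431), mmu-mir-1981 (0.812 and 0.761) and mmu-mir-183 (0.791 and 0.599). mmu-mir-145a, from the same transcript, was only 104th in that order, with 0.445 (0.579 over 7).

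Closest to mmu-mir-145a were mmu-mir-365-1 (r = 0.947, and 0.959 over 7), mmu-mir-365-2 (0.940 and 0.948), the epithelial mmu-mir-205 (0.925 and 0.907) and the Hox cluster miRNAs mmu-mir-10b (0.908 and 0.874) and mmu-mir-10a (0.906 and 0.872). These values changed little without the 3 libraries. The closest, mmu-mir-365-1, had 1.93 ± 0.835 RPM in CD-F0 and 5.08 ± 2.13 RPM in HFD-F0 (SD, n = 5), with a log2 fold change of 1.32 (SE 0.39, edgeR adjusted p = 0.225). For mmu-mir-365-2 it was 1.20 (SE 0.41), for mmu-mir-205 0.44 (SE 0.26), for mmu-mir-10b 0.72 (SE 0.30) and for mmu-mir-10a 0.68 (SE 0.29). As r was taken over both diets together, a difference between the groups enters it.

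Over all 10 libraries the hairpins closest to the muscle group were largely its own members. For miR-1a the first were mmu-mir-206 (r = 0.953, and 0.798 over 7) and mmu-mir-133a-2 (0.934 and 0.552), for mmu-mir-133b the miR-133a hairpins (0.985 and 0.9501 for mmu-mir-133a-1, with which it can share reads), and for mmu-mir-206 the miR-1a hairpins (0.953 and 0.798 for mmu-mir-1a-1). mmu-mir-378d was the one hairpin from outside the group among the 5 closest to miR-1a (0.920 and 0.572), mmu-mir-133b (0.911 and 0.492) and mmu-mir-206 (0.926 and 0.764).

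Without the low 3 some pairs within the group fell below pairs with mmu-mir-143 or mmu-mir-145a. Over the 7 libraries miR-1a had r = 0.756 with mmu-mir-143, above its 0.552 with mmu-mir-133a-2 and 0.469 with mmu-mir-133b. mmu-mir-133b had 0.792 with mmu-mir-145a, above its 0.364 with mmu-mir-206, and mmu-mir-206 had 0.667 with mmu-mir-143. miR-1a with mmu-mir-206, at 0.798, stayed above these values.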

How the data were processed

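Per the study's methods, RNA of 18 to 30 nt was ligated to adapters with unique molecular identifiers, sequenced on DNBSEQ and annotated with SPORTS. The labels name an NEB small RNA kit instead and no identifiers. The submitters' processing notes name Bowtie and mm10. 1 mismatch was allowed. The authors deposited 1 table per library with estimated counts per hairpin or other feature, in which reads that fit several features are divided. Whether identifiers were collapsed is not given in the sources used here.

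Reads of each feature with and without a genome match were added, and no read of the 8 members lacked one. RPM are reads per 1000000 clean reads. Estimated counts were rounded and fitted with edgeR 4.0.16 (R 4.3.3; TMM, filterByExpr, quasi-likelihood test, Benjamini-Hochberg over all 814 features). DESeq2 1.42.0, other filters, library sizes, left-out libraries and a fit with the replicate number were alternatives. Log values use log2(RPM + 0.1), and likeness needs a mean of at least 1 RPM.

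The members and gene lists were chosen with earlier results of these data known. Named are the members, the 5 hairpins most like each, and of each list its most abundant hairpin and those past the thresholds. Other list hairpins named, and mmu-mir-222 and the SDs of mmu-mir-6977 and mmu-mir-122, were chosen after their values were seen. A planned permutation test of genome-unmatched reads was not run, since members have 0 such reads. All 45 pairs of libraries differed far beyond sampling noise (chi-square per degree of freedom at least 533).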

Additional observations from a re-analysis of the deposited data

Results flagged for a closer look

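The ratio of mmu-mir-133b to mmu-mir-206 in CD-F0 4 was 940.5 reads per 1000, far from the other 4 CD-F0 libraries, of which the nearest held 207. Its distance to that library was 0.825 of the range of the group, above Dixon's critical value of 0.71 for 5 samples. It was the 1 value so marked among 42 groups of values examined, and chance marks about 1 group in 20. CD-F0 4 had 84 mmu-mir-206 reads. Its cause was not tested.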

How the results depend on the processing

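Of all features, 17 were higher and 13 lower. Without a filter on low counts the numbers were 39 and 54, and with at least 10 reads in every library 11 and 8. Leaving out 1 library gave 12 to 23 higher and 6 (without CD-F0 4) to 27 (without CD-F0 5) lower, with 20 without CD-F0 2 and 21 without CD-F0 3 or HFD-F0 1. The 1 member past the thresholds, mmu-mir-145a, remained 1 or became 0 when 1 library was left out, with 0 without CD-F0 2 (log2 fold change 0.95), CD-F0 4 (0.96) or HFD-F0 4 (0.62). Its log2 fold change was 0.62 to 1.297 over all alternatives, 1.08 with DESeq2 and 1.17 with clean reads as library size, which moves the median of all features by 0.10. For mmu-mir-206 the range was -1.53 to -0.27, but its mean log2 RPM difference of -0.84 ran from -1.97 (without CD-F0 4) to 0.05 (without HFD-F0 2). For mmu-mir-143 the range was -0.06 to 0.16. Values of mmu-mir-143, mmu-mir-1a-1 (-0.47 to 0.09), mmu-mir-133a-1 (-0.33 to 0.28) and mmu-mir-133b (-0.16 to 0.44) took both signs. The mean log2 difference of mmu-mir-145a per mmu-mir-143 was 0.76 to 1.20, and 0.79 without the 3 libraries low in mmu-mir-206, an alternative chosen after seeing the data.

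With the replicate number as a block, 8 features were lower, 0 members were past the thresholds, mmu-mir-145a had 0.95 (SE 0.42) and mmu-mir-206 -1.53. Deviations of libraries with the same number had correlations of 0.336, -0.087, 0.246, -0.191 and -0.137, and 2 of 5 CD-F0 libraries correlated best with their own number. These values show no pairing over all numbers. With 5 values of mixed sign they cannot settle whether some numbers share a factor.

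Depth was lowest for mmu-mir-133b, with 79 reads in CD-F0 4, and for mmu-mir-206, with 84 reads there. Whether reads are independent molecules is not given in the sources used here, and the intervals cover counting error only.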

Other observations

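mmu-mir-221 and mmu-mir-222, hairpins of 1 transcript known from vascular smooth muscle growth and from many other cells, differed in their values by diet, as mmu-mir-145a and mmu-mir-143 did. This pair was chosen after its values were seen. mmu-mir-221 held 293, 293, 193, 245 and 245 RPM in CD-F0 1 to 5 and 495, 413, 487, 404 and 459 RPM in HFD-F0 1 to 5. All 5 HFD-F0 libraries lay above all 5 CD-F0 libraries, with means of 254 ± 41.4 and 452 ± 41.5 RPM (SD, n = 5). The groups did not overlap for mmu-mir-365-1 either, with at most 3.05 RPM in CD-F0 and at least 3.28 RPM in HFD-F0. The share of all features whose groups do not overlap was not counted, so nothing is read from this separation. With edgeR its log2 fold change was 0.73 (SE 0.16) with an adjusted p of 0.116, which misses 0.05, and over the alternatives the adjusted p ran from 0.00220 (DESeq2) to 0.714 (without the 3 libraries lowest in mmu-mir-206), while the log2 fold change stayed between 0.63 and 0.83. For mmu-mir-222 it was 0.09 (SE 0.20, adjusted p = 0.932), with 577 ± 154 and 668 ± 136 RPM (SD, n = 5). Per 1000 mmu-mir-222 reads there were 454 ± 90.9 mmu-mir-221 reads in CD-F0 and 691 ± 110 in HFD-F0 (SD, n = 5). This ratio overlapped between groups, with CD-F0 2 (583) above HFD-F0 1 (546), and the difference between the pair was not tested.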
